A study of Mus musculus with 24 samples.

Results

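6 genes of thermogenesis that does not depend on UCP1 were followed in subcutaneous inguinal white adipose tissue of young mice: Gatm, Gamt, Slc6a8, Ckb and Alpl of the creatine cycle and Atp2a2 of the calcium cycle. They were chosen by symbol, with earlier results of these data known, and are 6 of the 16118 genes measured. All 6 passed the filter on low read numbers that left 16005 genes for testing. Atp2a2 was the only 1 of the 6 that passed the test (limma over all genes) in the comparisons by age: from postnatal day 21 to day 28 it fell by 20.2% to 28.8%, in both sexes and under both kinds of weaning. No member passed the test between delayed and standard weaning or between females and males.

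Beige adipocytes can burn energy by cycles that consume ATP without net work. In the creatine cycle, creatine is phosphorylated by a creatine kinase, of which CKB is the brain-type cytosolic enzyme, and phosphocreatine is split again by the tissue-nonspecific alkaline phosphatase encoded by Alpl. GATM and GAMT make creatine from arginine, glycine and methionine-derived methyl groups, and SLC6A8 carries creatine into the cell. In the calcium cycle, the pump SERCA2, encoded by Atp2a2, moves calcium into the endoplasmic reticulum at the cost of ATP, and ryanodine and inositol trisphosphate receptors let it out again.

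RNA with a poly(A) tail was sequenced from 24 mice, 1 library per animal and 4 animals in each of 6 groups. Each sex was sampled at day 21 (p21) and, in 2 further groups, at day 28 (p28). Standard weaning (SW) took the pups from their mother at day 21, and delayed weaning (DW) left them with her until sampling. The p21 animals also carry the SW label, no genetic change or drug is named in any group, and the strain is not given in the sources used here. Animals are named by their label number, which pairs no animals between groups, and their descriptions were followed where the titles give the p21 animals another age. The study asks how this depot is remodelled in each sex when breastfeeding is prolonged.

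Reads per library ranged from 57600711 to 302145813 over the listed genes. The libraries differed in how expression followed the GC content of transcripts. This is expressed as a slope in log2 units per 10 percentage points of GC, and it ranged from -0.63 in DW female 83 to 0.28 in SW female 81. DW female 82 (-0.38) and p21 male 37 (-0.35) were also far below the rest. Adipocyte markers were high in every library: the 8 summed to 17715 to 26828 at p21 and to 20054 to 29106 at p28. Markers of other cells varied. All 16 skeletal muscle markers were measured, and their sum lay between 40.8 and 613.6 in males and 43.1 and 1598 in females at p21, between 484.1 and 7531 (males) and 440.0 and 3528 (females) after SW, and between 373.0 and 7158 (males) and 51.5 and 2228 (females) after DW. Only Myh2, Myh4 and Myh7 were at 0 anywhere, each in 1 library. The 12 mammary epithelium markers summed to 0.339 to 46.8 in males and to 45.4 to 408.8 in females. In bulk tissue, fewer cells of a type and less RNA per cell cannot be told apart.

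Per kilobase of transcript, Atp2a2 was the most abundant member, with a mean normalised value of 39.6 over the 24 animals. This level was above that of 91.8% of the genes tested. Ckb followed at 8.90 per kilobase (above 66.1% of genes), Gamt at 7.58 (62.1%), Gatm at 4.99 (51.9%), Slc6a8 at 3.91 (46.5%) and Alpl at 3.15 (42.1%). On the same scale Ucp1, the mitochondrial uncoupling protein of brown and beige fat, reached 132.2. The muscle creatine kinase Ckm reached 47.3 and the fast-muscle calcium pump Atp2a1 56.9, as means over animals that differed widely. Before division by length, values ran from 0.0158 to 642.4 for Ckm and from 0.324 to 839.0 for Atp2a1. Those of Atp2a2 ran from 136.6 to 236.9. Read numbers per library were 11205 to 43441 for Atp2a2 and 364 to 4581 for the other members.

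**Figure D1:**
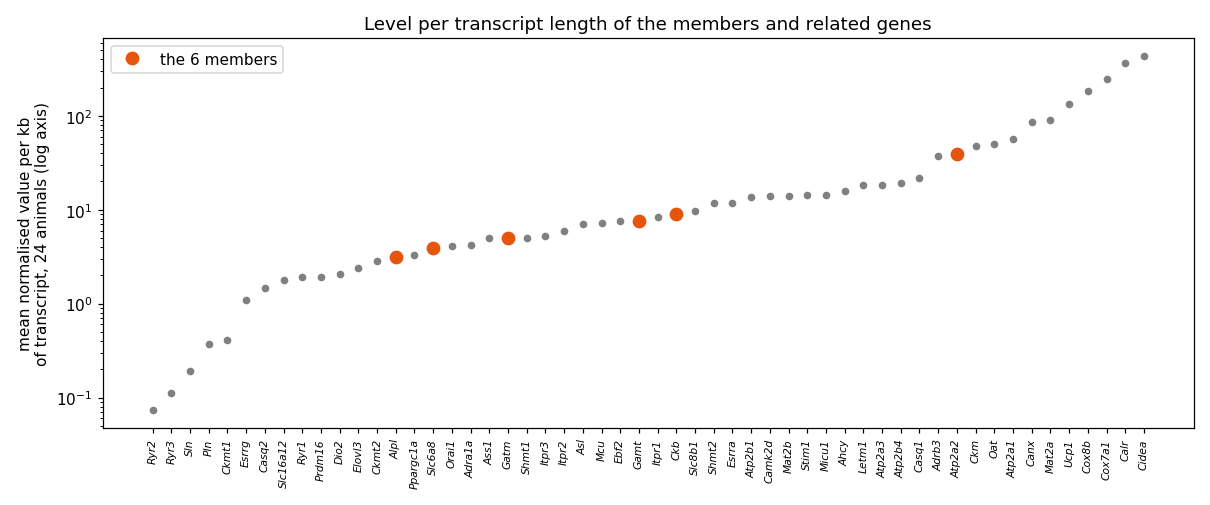
Mean normalised value per kilobase of coding transcript over 24 animals (log axis) for the 6 members, in orange, and the other creatine, calcium and beige genes, in grey. Atp2a2 lies at 39.6, and the 5 creatine genes lie between 3.15 and 8.90.

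Atp2a2 (ENSMUSG00000029467; chromosome 5, 122591576 to 122640288 as deposited, minus strand) encodes SERCA2, and its count per gene does not separate the isoforms of this pump. In p21 males its normalised values were 236.9, 214.2, 172.6 and 187.8, and in p21 females 225.0, 232.3, 198.7 and 222.2. The SW males had 155.0, 169.8, 155.5 and 136.6, and the SW females 165.8, 155.8, 146.5 and 156.0. The DW males had 161.0, 151.6, 156.3 and 173.6, and the DW females 144.5, 157.4, 194.3 and 190.7. No SW animal reached the p21 range of its sex, and no DW female reached that of the p21 females. In males the highest DW value (173.6) was just above the lowest p21 value (172.6). The share of all genes whose groups do not overlap was not counted, here and below.

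Group means of Atp2a2 were 202.9 ± 28.5 in p21 males, 219.5 ± 14.5 in p21 females, 154.2 ± 13.6 in SW males, 156.0 ± 7.89 in SW females, 160.6 ± 9.47 in DW males and 171.7 ± 24.6 in DW females (SD, n = 4 each). From p21 to SW, Atp2a2 fell by 0.39 on the log2(value + 1) scale in males (SE 0.11, limma adjusted p 0.0199). In females it fell by 0.49 (SE 0.11, limma adjusted p 0.00324). From p21 to DW the fall was 0.33 for males (SE 0.11, limma adjusted p 0.0407). For females it was 0.36 (SE 0.11, limma adjusted p 0.0278). The SW and DW comparisons of a sex share their p21 animals and are not independent of each other. Between DW and SW, Atp2a2 differed by 0.06 in males (95% interval -0.16 to 0.28) and by 0.13 in females (-0.09 to 0.35), and neither passed. The size of the fall from p21 to SW did not differ detectably between the sexes (sex by age interaction -0.10, 95% interval -0.41 to 0.21, limma adjusted p 0.952). For the fall from p21 to DW such a difference was not tested.

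Lower genes were common in these comparisons. From p21 to SW, 11.9% of the genes tested changed in males and 4.97% were lower, beside 1 of 6 members. In females 11.6% changed and 4.23% were lower, again beside 1 of 6. From p21 to DW, 15.0% changed and 6.10% were lower in males, and 12.1% changed and 6.16% were lower in females, with Atp2a2 as the 1 member called each time. The median of the 6 members lay between -0.18 and -0.29 on the log2 scale in the 4 comparisons, beside 0.00 to 0.02 over all genes.

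The male and the DW calls for Atp2a2 were near the threshold, while the fall kept its direction in all 16 or 17 other settings of each comparison. The call from p21 to SW in females passed in all 16. In fits of the compared groups alone, the limma adjusted p was 0.0876 for SW males, 0.0717 for DW males and 0.157 for DW females. In edgeR on the recovered reads, the DW female p was 0.0745. Leaving out p21 male 37 or 38 or SW male 124 ended the SW male call (limma adjusted p 0.0659, 0.0538 and 0.0641). Leaving out p21 male 37 or 38 or any 1 of the 4 DW males ended the DW male call (limma adjusted p 0.0559 to 0.113). Leaving out p21 female 30, 36 or 56 or DW female 76 or 77 ended the DW female call (0.0569 to 0.0773 in limma). Without DW females 82 and 83 together, the DW female fall was 0.54 (limma adjusted p 0.00475).

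Markers of other cells moved with age in the same comparisons. Of the 16 skeletal muscle markers, 11 were higher in SW and 10 in DW males than at p21, and 1 and 0 in females. Atp2a1, the pump gene of fast muscle, changed by 5.62 from p21 to SW and by 5.31 from p21 to DW in males on the log2 scale. With the muscle score (each animal's mean log2 value over the 16 markers) as a covariate, the fall of Atp2a2 was 0.44 in SW males and 0.37 in DW males (limma adjusted p 0.0785 and 0.0997). In females it was 0.53 and 0.36 (limma adjusted p 0.00900 and 0.0329). In males the muscle score nearly separates the ages, at 0.935 to 3.67 at p21, 3.60 to 8.13 after SW and 3.14 to 6.98 after DW. An age call lost in this fit in males therefore cannot be read either way. Of the 5 macrophage markers, 3 to 5 were higher at p28 in each of the 4 comparisons (sums of 96.2 to 243.0 at p21 and 244.2 to 451.0 at p28). Of the 5 erythroid markers, 2 to 5 were lower (420.9 to 1364 at p21, 112.2 to 413.3 at p28). No marker of these last lists was at 0 in any library, and their part in the fall of Atp2a2 was not tested.

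**Figure D2:**
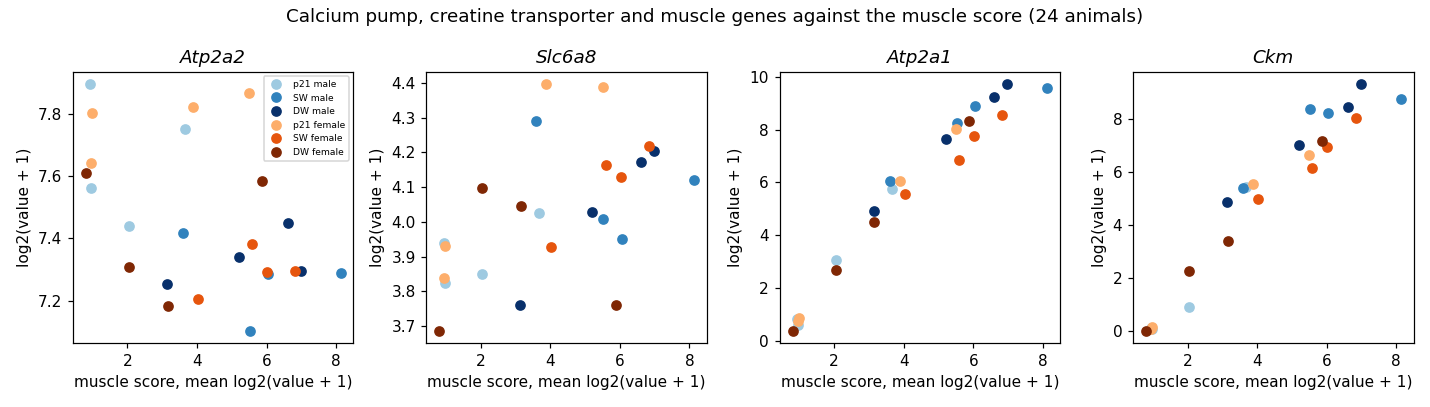
log2(value + 1) of Atp2a2, Slc6a8, Atp2a1 and Ckm in each of 24 animals (points, coloured by group) against the muscle score, the animal's mean log2(value + 1) over 16 skeletal muscle markers. Atp2a1 and Ckm rise along the score. The p21 animals lie high in Atp2a2 at low and at middle scores.

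Creatine synthesis came next. Gatm (ENSMUSG00000027199; chromosome 2, 122424948 to 122441784 as deposited, minus strand) encodes the amidinotransferase of the initial step. Its values were 12.7, 9.11, 8.36 and 9.28 in SW males and 13.1, 12.1, 16.1 and 11.2 in DW males. They were 10.7, 9.98, 9.06 and 11.1 in SW females and 11.5, 13.3, 13.0 and 14.3 in DW females. All 4 DW females were above all 4 SW females, and in males only SW animal 78 reached into the DW range. The share of all genes that separate in this way was not counted. Between DW and SW females, 18.9% of all genes had an unadjusted p under 0.05 in limma. The DW minus SW difference was 0.38 on the log2 scale in males (95% interval 0.01 to 0.76, unadjusted p 0.047, limma adjusted p 0.719). In females it was 0.32 (95% interval -0.05 to 0.70, limma adjusted p 0.324). Neither passed, and the difference was positive in all 17 other settings in males and all 18 in females. At p21 Gatm was 11.9 ± 3.57 in males and 13.4 ± 3.38 in females (SD, n = 4), and no age comparison passed.

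Gamt (ENSMUSG00000020150; chromosome 10, 80093985 to 80096846 as deposited, minus strand), the methyltransferase that completes creatine synthesis, was 8.50 ± 2.49 in p21 males, 8.65 ± 0.685 in p21 females, 7.06 ± 0.460 in SW males, 6.38 ± 0.266 in SW females, 7.46 ± 1.01 in DW males and 6.87 ± 1.97 in DW females (SD, n = 4). The p21 females had 7.63, 9.14, 8.88 and 8.94 and the SW females 6.21, 6.16, 6.41 and 6.74, with no overlap. This difference of -0.38 on the log2 scale had an unadjusted p of 0.0412 and did not pass over all genes (limma adjusted p 0.186), though it did in a fit of those 2 groups alone (0.033). Of all genes, 24.1% had an unadjusted p under 0.05 in limma in this comparison, and the share without overlap was not counted. Between DW and SW, Gamt differed by 0.06 in males (95% interval -0.31 to 0.43) and 0.05 in females (-0.32 to 0.42).

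Slc6a8 (ENSMUSG00000019558; chromosome X, 72716756 to 72726108 as deposited, plus strand), the creatine transporter, lay between 11.9 and 20.1 in all 24 animals. Its group means were 14.1 ± 0.967 in p21 males, 16.9 ± 3.61 in p21 females, 16.1 ± 1.81 in SW males, 16.3 ± 1.47 in SW females, 15.6 ± 2.21 in DW males and 14.0 ± 2.11 in DW females (SD, n = 4). The p21 females split into animals 30 and 36 (20.1 and 19.9) and animals 55 and 56 (13.3 and 14.3). Animals 30 and 36 also had higher muscle scores (3.88 and 5.50 against 0.945 and 0.976). Over all 24 animals, deviations from the group mean in Slc6a8 and in muscle score had a Pearson's r of 0.510. This did not pass (permutation p 0.053, adjusted 0.139), nor did the same relation for any other member. No comparison of Slc6a8 passed. The DW minus SW difference was -0.05 in males (95% interval -0.34 to 0.24) and -0.21 in females (-0.50 to 0.08).

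Ckb (ENSMUSG00000001270; chromosome 12, 111635795 to 111638772 as deposited, minus strand) had values of 9.31, 17.6, 17.3 and 18.0 in p21 males and 11.1, 16.6, 13.2 and 12.1 in p21 females. The SW males had 11.4, 10.3, 11.0 and 16.0 and the DW males 11.2, 14.1, 10.9 and 10.0. The SW females had 8.72, 15.2, 13.4 and 20.0 and the DW females 15.3, 16.5, 9.22 and 5.97. The groups overlapped in each of these comparisons, and the DW females split into a high pair (76 and 77) and a low pair (82 and 83). The pairs also fall in different runs of animal numbers, and the labels do not say what a run stands for. The DW minus SW difference was -0.06 in males (95% interval -0.61 to 0.49, limma adjusted p 0.998) and -0.31 in females (-0.85 to 0.24, limma adjusted p 0.52). From p21 to p28 Ckb differed by -0.31 (SW) and -0.37 (DW) in males and by 0.06 and -0.24 in females, and none passed.

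Alpl (ENSMUSG00000028766; chromosome 4, 137469044 to 137523695 as deposited, minus strand) had values of 6.13, 7.88, 9.41 and 9.28 in p21 males and 5.91, 11.7, 8.96 and 10.0 in p21 females. The SW males had 7.10, 5.89, 6.39 and 7.12 and the SW females 8.97, 11.5, 9.54 and 10.7. The DW males had 5.72, 7.55, 7.36 and 6.18 and the DW females 8.15, 10.1, 5.11 and 3.99. All 4 SW females lay above all 4 SW males, and how many of all genes separate likewise was not counted. DW females 82 and 83, of the later run of animal numbers, lay below every other animal. The DW minus SW difference was -0.58 in females (95% interval -1.01 to -0.15, unadjusted p 0.0106, limma adjusted p 0.173) and 0.01 in males (-0.42 to 0.44). The sex by weaning interaction for Alpl, which tests whether weaning acted differently in the sexes, was -0.59 and did not pass (limma adjusted p 0.802). The female difference passed without DW female 76 (0.0486) or 77 (0.0368 in limma). Those fits called 1996 and 871 of all genes for weaning in females, against 204 in the main fit. The difference was -0.15 without DW females 82 and 83 together, where it did not pass.

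**Figure D3:**
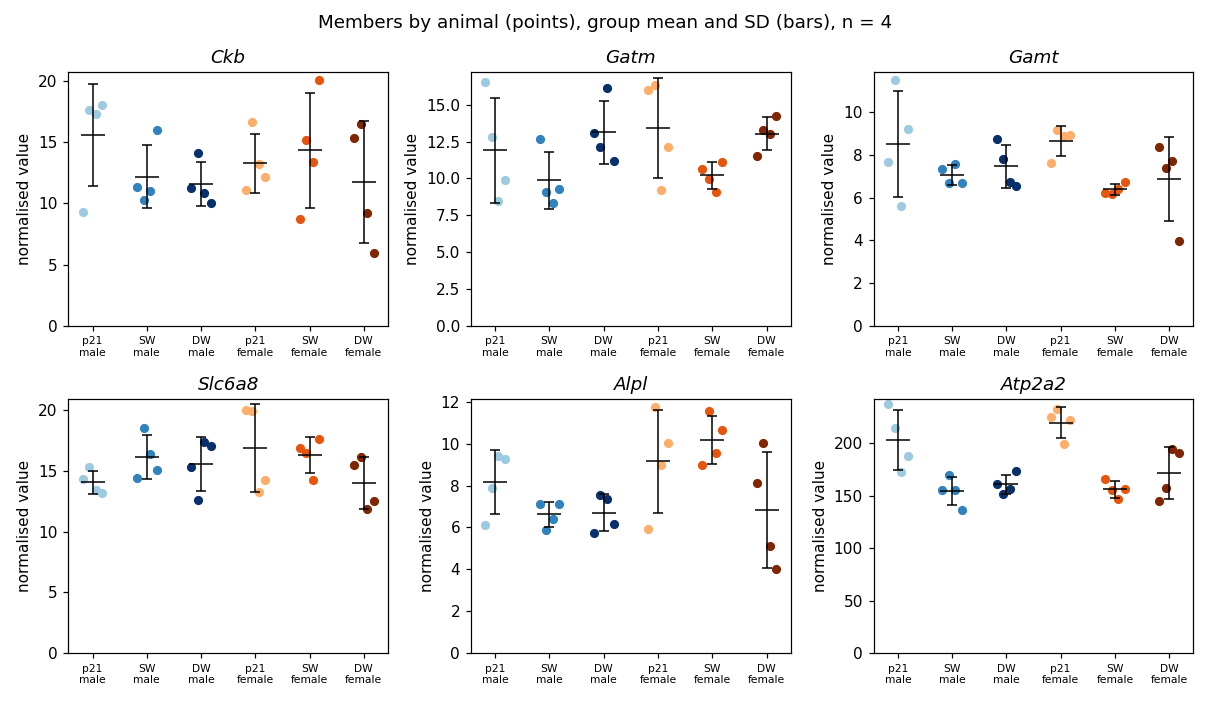
Normalised value of each member in each of 24 animals (points), by group, with the group mean and SD as bars (n = 4). The p21 animals stand above the SW animals in Atp2a2, and the DW females spread widely in Ckb and Alpl.

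**Figure D4:**
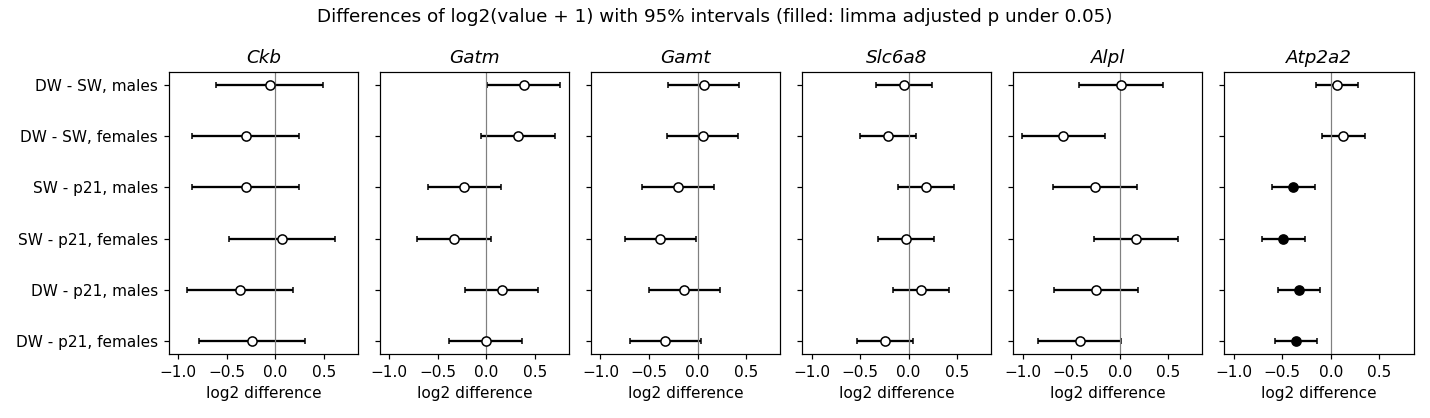
Differences of log2(value + 1) with 95% intervals for the 6 members in the 2 weaning and 4 age comparisons, with filled points where the limma adjusted p was under 0.05. The 4 age comparisons of Atp2a2 are filled, from -0.33 to -0.49, and all other points are open.

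Among all genes tested, 0.256% changed between DW and SW males and 1.27% between DW and SW females, against 0 of 6 members in each by limma, edgeR and DESeq2 alike. At an unadjusted p under 0.05, 1 member (Gatm) passed in males and 1 (Alpl) in females, where 6.94% and 18.9% of all genes did. The median of the 6 members was 0.04 in males and -0.08 in females, beside 0.00 and -0.02 over all genes.

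Ckb and Alpl varied together within groups, and with the composition of the library. Each animal's deviation from its group mean was compared with the same deviation in GC slope. The slope is itself fitted to the deviations of many genes in the same libraries. A gene of high or low GC can therefore follow it by construction. For Ckb, Pearson's r was 0.937 and Spearman's rho 0.933 over 24 animals (p 1e-05 each, the smallest that 100000 permutations within groups can give, adjusted p 0.00012 over 12 relations). For Alpl, r was 0.807 and rho 0.773 (permutation p 0.00079 and 0.00137, adjusted 0.00474 for r). Atp2a2 went the other way, with r of -0.722 and rho of -0.703 (permutation p 0.00653 and 0.00565, adjusted 0.0261 for r). Without DW females 83 and 76, whose slopes deviated most from their group mean, r was 0.929, 0.741 and -0.644. For Gamt the rank correlation passed (rho 0.574, permutation p 0.00705, adjusted 0.0212) and Pearson's r did not (0.581, permutation p 0.0578, adjusted 0.139). Without DW females 83 and 76 its Pearson's r was 0.278, and the rank correlation was not recomputed. For Gatm (r -0.252, rho -0.192) and Slc6a8 (r 0.245, rho 0.186) neither passed. The transcript of Ckb has 59.99% GC and that of Gamt 59.7%, Slc6a8 56.8%, Alpl 56.5%, Atp2a2 50.8% and Gatm 43.2%, with a median of 50.3% over the genes tested. The share of all genes that pass the same relation was not counted. The permutation p-values therefore do not set these members apart from other genes. The source of the slope was not tested.

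**Figure D5:**
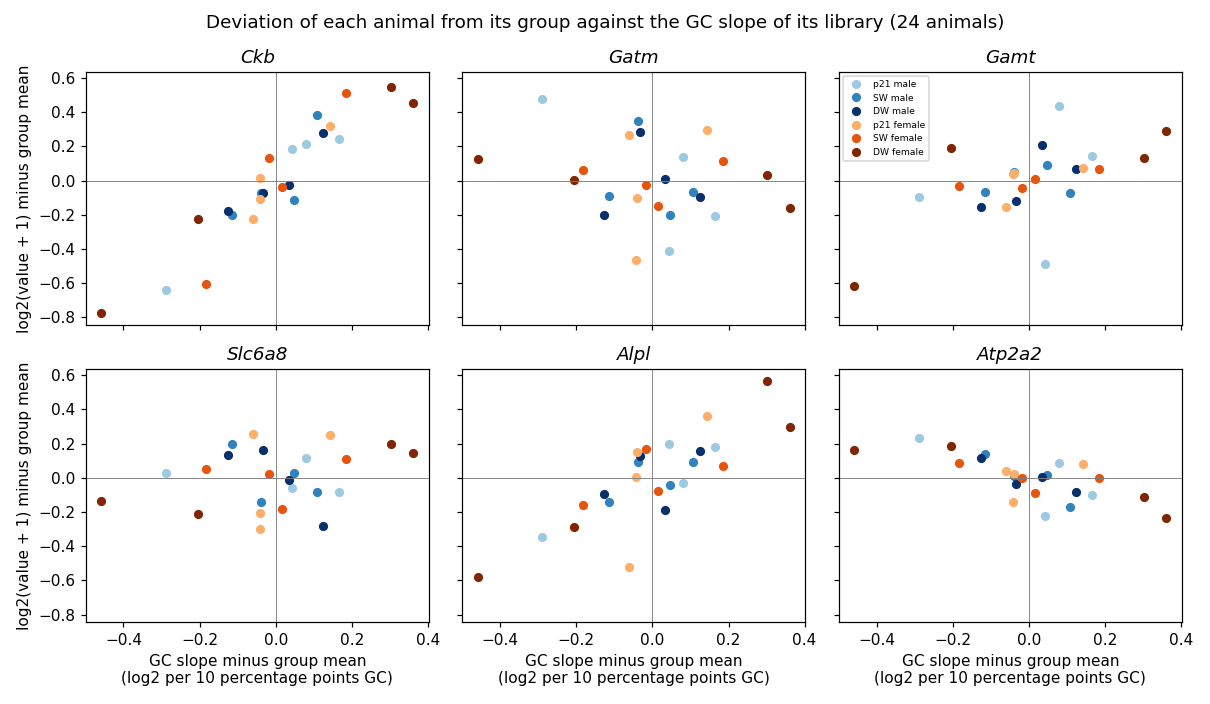
Deviation of each of 24 animals from its group mean in log2(value + 1) of each member, against the deviation of its library's GC slope (log2 per 10 percentage points of GC). Ckb follows the slope most closely (r = 0.937), Alpl next (0.807), and Atp2a2 inversely (-0.722).

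With the GC slope as a covariate, a setting chosen after seeing the data, the age differences of Ckb in males were -0.55 for SW and -0.52 for DW, and both passed (limma adjusted p 0.00209 and 0.00238). Alpl passed in SW males (-0.41, limma adjusted p 0.0404). This fit called 2753 of 16005 genes from p21 to SW in males, against 1901 in the main fit. From p21 to DW in males it also called more genes than the main fit. The slope is fitted to the same libraries and Ckb follows it, so the covariate takes up part of the spread of Ckb within groups. Atp2a2 passed in all 4 age comparisons, with falls of 0.32 and 0.28 in males and 0.46 and 0.47 in females. The female weaning difference was 0.19 for Ckb and -0.25 for Alpl, and neither passed. Without p21 male 37, whose slope and Ckb value were both low, the SW male difference of Ckb was -0.52 and did not pass (limma adjusted p 0.209).

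The 120 bases before the start of Ckb and of the 2 annotated starts of Alpl are given because these genes moved together, with Gatm, which did not follow them, beside them. All 4 come from RefSeq on GRCm38.p6, minus strand: chr12:111672339-111672458 for Ckb, chr4:137796385-137796504 and chr4:137766476-137766595 for the upstream and downstream starts of Alpl, and chr2:122611278-122611397 for Gatm. Capitals mark TATAAA as well as CCAAT and GGGCGG on either strand.
Ckb: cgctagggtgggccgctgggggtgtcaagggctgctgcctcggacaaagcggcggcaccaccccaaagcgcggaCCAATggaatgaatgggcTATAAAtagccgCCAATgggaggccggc
Alpl upstream start: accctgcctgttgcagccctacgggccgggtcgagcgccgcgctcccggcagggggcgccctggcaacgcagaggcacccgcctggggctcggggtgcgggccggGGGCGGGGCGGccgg
Alpl downstream start: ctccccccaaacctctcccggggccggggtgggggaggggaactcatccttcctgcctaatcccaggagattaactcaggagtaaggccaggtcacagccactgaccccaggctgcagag
Gatm: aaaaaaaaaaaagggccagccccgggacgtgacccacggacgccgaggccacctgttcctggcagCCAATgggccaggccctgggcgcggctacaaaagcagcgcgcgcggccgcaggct
Ckb has 1 TATAAA and 2 CCAAT, Gatm 1 CCAAT in these 120 bases, and the upstream start of Alpl 2 overlapping GGGCGG near its end. In 250 bases before the start, 12.4% of 32851 mouse promoters hold TATAAA, 33.8% CCAAT and 32.7% GGGCGG. The GC content of those 250 bases is 62.8% for Ckb, 68.4% and 56.0% for Alpl and 59.2% for Gatm, beside a median of 52.4%. In the windows printed, none of the 3 motifs was in both Ckb and a start of Alpl. Over the 250 bases, TATAAA was in both Ckb and, on the other strand and farther from the start, the downstream start of Alpl.

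Between the sexes, no member passed. At p21 the smallest limma adjusted p of a member was 0.672 (Slc6a8), where 0.356% of all genes passed. At p28 after DW it was 0.59 (Slc6a8), where 2.46% passed. At p28 after SW it was 0.245, for Alpl, where 3.54% passed: Alpl was 10.2 ± 1.15 in females and 6.63 ± 0.594 in males (SD, n = 4), a difference of 0.55 on the log2 scale (95% interval 0.12 to 0.98, unadjusted p 0.0147). That difference passed in a fit of those 2 groups alone (limma adjusted p 0.0267) and with the GC slope as a covariate (0.0229). It was -0.31 with the mammary score as a covariate, a score that nearly separates the sexes: all 12 mammary epithelium markers were higher in SW females. The weaning by sex interaction passed for 0.0187% and the age by sex interaction for 1.03% of all genes, and for 0 of 6 members by limma, edgeR and DESeq2. At an unadjusted p under 0.05 no member passed at p21 or after DW, where 8.60% and 19.7% of all genes did, and 1 (Alpl) passed after SW, beside 9.16% of all genes. None passed in the weaning by sex and age by sex interactions, beside 5.09% and 8.15%.

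Of 12 other genes of creatine kinases and creatine supply, Shmt1, which handles the one-carbon units behind methyl group supply, changed alike in all 4 age comparisons. It was 19.1 ± 3.35 in p21 males and 23.1 ± 5.31 in p21 females, against 9.08 ± 0.808 in SW males, 12.1 ± 1.37 in SW females, 11.6 ± 0.518 in DW males and 11.7 ± 1.97 in DW females (SD, n = 4). No p28 animal reached the p21 range of its sex, and the share of all genes that separate likewise was not counted. Shmt1 fell by 0.98 and 0.86 on the log2 scale to SW in males and females and by 0.66 and 0.91 to DW (limma adjusted p 0.000212, 0.000379, 0.00536 and 0.000425), and stayed past the threshold in every other setting tried. In SW females, Oat, an ornithine aminotransferase, fell by 0.55 and Mat2a, which makes the methyl donor S-adenosylmethionine, by 0.67. In DW females Asl, which releases arginine, fell by 0.48. That call was lost in 4 of 17 other settings: in the fit of those groups alone, without p21 female 30, without DW female 83, and without DW females 82 and 83 together, where the difference was -0.32.

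The other creatine kinases moved alongside markers of muscle or mammary epithelium. Ckm, the muscle kinase, changed by 6.07 from p21 to SW and by 5.80 from p21 to DW in males, and the muscle mitochondrial kinase Ckmt2 by 2.63 to DW, as the muscle markers did. None of these 3 passed with the muscle score as a covariate. That score nearly separates the ages in males, so these lost calls cannot be read either way. Ckmt1, the ubiquitous mitochondrial kinase, was low: 0.0640 ± 0.0900 in p21 males, 0.101 ± 0.126 in SW males, 0.117 ± 0.143 in DW males, 0.634 ± 0.332 in p21 females, 2.17 ± 0.285 in SW females and 0.869 ± 0.273 in DW females (SD, n = 4). It was higher in females by 0.60 at p21, 1.53 in SW and 0.74 in DW animals, and its DW minus SW difference in females was -0.77 (limma adjusted p 0.00429). It rose by 0.97 from p21 to SW in females. The weaning call was lost in 6 of 18 other settings, edgeR and DESeq2 among them, and the call at p21 in 10 of 17. The mammary epithelium markers moved alongside, with 9, 12 and 11 of 12 higher in females at p21, after SW and after DW, and 2 of 12 lower in DW than in SW females. With the mammary score as a covariate, Ckmt1 did not pass between the sexes. That score nearly separates the sexes, so a call lost in this fit cannot be read either way.

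Over all 12 genes of this list, 0 rose and 0 fell between DW and SW males, and 0 rose and 1 fell in females. From p21 to SW, 1 rose and 1 fell in males and 1 rose and 3 fell in females. From p21 to DW, 2 rose and 1 fell in males and 0 rose and 2 fell in females. Without DW female 76 or 77, 4 and 2 genes of the list passed between DW and SW females, where 1996 and 871 of all genes did.

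Of 24 other genes of calcium cycling, none passed in limma between DW and SW or between the sexes. Without DW female 76 or 77, 3 and 1 passed between DW and SW females, where 1996 and 871 of all genes did. From p21 to SW 4 rose in males and 0 changed in females. From p21 to DW 6 rose in males and 2 fell in females. In males the calls included Atp2a1, Casq1, the calcium-binding protein of the muscle reticulum (4.38 and 4.02), and Ryr1, the muscle ryanodine receptor (4.06 and 3.88). The calls to DW also included Slc8b1 (0.63) and Adra1a (0.63), which were lost in 2 and 6 of 16 other settings. With the muscle score as a covariate, 0 and 1 calls were made in males, and calls lost in that fit cannot be read either way. Without p21 male 37 or 54 or SW male 85 the SW count was 2, 1 and 0, and without p21 male 53 or DW male 86 or 87 the DW count was 3, 2 and 2. Ryr3, another ryanodine receptor, was 1.08 ± 0.227 in p21, 1.89 ± 0.462 in SW and 2.55 ± 0.231 in DW males (SD, n = 4), a rise of 0.47 and 0.78. The rise to DW passed in all 16 other settings, and that to SW in 10. Ryr2, the receptor usually named in beige calcium cycling, was low, at 0.448 to 2.02 in all animals, and did not pass in any comparison. Sarcolipin (Sln), a small inhibitor of SERCA pumps, was listed at 0 in 10 of 24 libraries. In DW females Calr, which binds calcium inside the endoplasmic reticulum, fell by 0.60 against p21 and the mitochondrial exchanger gene Letm1 by 0.47, and neither passed without DW females 82 and 83.

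Ucp1 itself and 11 other beige fat genes give the setting. Ucp1 was 445.7 ± 199.2 in p21, 222.1 ± 151.4 in SW and 103.3 ± 29.5 in DW males, and 244.1 ± 172.9, 136.7 ± 49.4 and 145.5 ± 38.9 in females (SD, n = 4). It fell by 2.02 from p21 to DW in males (limma adjusted p 0.0205), a call lost in 4 of 16 other settings: with the muscle score as a covariate and without p21 male 53 or DW male 79 or 86. Between DW and SW, 1 of the 12 fell in each sex: Elovl3, a fatty acid elongase, fell by 2.13 in males and fell by 1.501 in females. The female call was lost in 11 of 18 other settings. From p21 to SW, 2 rose and 1 fell in males and 1 rose and 3 fell in females. From p21 to DW, 1 fell in males, and 1 rose and 2 fell in females.

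By the likeness of its pattern over 24 animals, Atp2a2 was nearest to Hspd1 (r 0.921), Gspt1 (0.910) and Sf3b3 (0.909) among 3367 genes with a mean value of at least 50. Ckb was nearest to Rcc2 (0.888), Rplp2 (0.866) and Fscn1 (0.865), and Alpl to Septin9 (0.813), Rcc2 (0.798) and Psmd3 (0.793). Gatm was nearest to Pam (0.757), Asah1 (0.743) and Aspn (0.700), Gamt to Akt1 (0.774), Srrt (0.767) and Alas1 (0.750), and the genes near Slc6a8 included Gprc5b (0.720) and Arhgap35 (0.715). These correlations are descriptions: all genes of an animal share its library, depth and base composition. Rcc2 is near both Ckb and Alpl, and its transcript has 58.01% GC. Among the members, the deviations of Ckb and Alpl from their group means had a correlation of 0.81, those of Ckb and Atp2a2 -0.69, Alpl and Atp2a2 -0.63 and Gatm and Atp2a2 0.57.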

How the data were processed

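Poly(A) RNA of inguinal white adipose tissue from 24 mice was measured, 1 library per animal. Per the labels, the library kit was KAPA mRNA HyperPrep and the sequencer a NovaSeqXPlus. The submitters' processing notes name fastp, HISAT2, featureCounts, DESeq2 1.38.3 and the build mm10, with no role or strand setting. The authors deposited a normalised signal per gene and sample. Every such signal (100%, tolerance 0.01 reads) was a whole multiple of what 1 read is worth, so reads were recovered, and their number gives the depth of each library. Of 16208 rows, 90 repeated genes were left out. Gene positions are as deposited: only 0.63% of 15881 gene starts equalled those of RefSeq GRCm38.p6, although the notes name mm10, so they may be on another build. Promoter positions are on GRCm38.p6.

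Values were analysed as log2(value + 1) of the deposited signal, which understates changes of low genes. Fold changes are on that scale. Low genes were removed with filterByExpr, applied to recovered reads at a minimum count of 10. limma 3.58.1 (R 4.3.3) fitted all 24 samples with 1 coefficient per group and 18 residual degrees of freedom, with a variance trend. P-values were adjusted by Benjamini-Hochberg over 16005 genes, and a gene was called under 0.05. The script was tested on simulated data. Alternatives were edgeR 4.0.16 with TMM and DESeq2 1.42.0 on the recovered reads, TMM scaling, a pseudocount of 0.1, no filter, the compared groups only, muscle and mammary scores or the run of animal numbers as covariates, and each animal left out. The runs, used for the weaning comparisons only, were animal numbers below 81, those from 81 on, and 124 alone. The GC slope covariate and the fit without DW females 82 and 83 were chosen after seeing the data. The slope is that of each gene's deviation from its mean on transcript GC (GENCODE M21), over 9006 genes with a mean above 10.

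Named genes are the 6 members, genes of the fixed lists where a count or marker level is described, and for each member the 3 genes of highest correlation, of which 1 is not reported here. The members and lists were chosen with earlier results of these data known.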

Additional observations from a re-analysis of the deposited data

Results flagged for a closer look

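In groups of 4 animals, an animal was singled out where its gap to the nearest other, divided by the whole range of the group, exceeded Dixon's critical value for 4 samples at the 95% level. Of 54 groups of values examined, 6 had such an animal, where chance gives about 1 in 20, or 2.7. Among the members, Ckb was 3.37 on the log2(value + 1) scale in p21 male 37, beside 4.19 to 4.25 in the other p21 males, and this library also had the lowest GC slope of its group. Gamt was 3.11 in p21 female 30, beside 3.30 to 3.34 in the other p21 females. The GC slope was 0.180 in p21 female 36, beside -0.02 to 0.00 in the other p21 females. The number of genes detected was 14054 in p21 male 53, beside 15859 to 15977 in its group, 15497 in SW male 84, beside 15955 to 16042, and 15972 in SW female 74, beside 16053 to 16066. The libraries of p21 male 53 and SW male 84 were also the 2 with the fewest reads, 57600711 and 76850086.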

How the results depend on the processing

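No paired analysis was possible because animal numbers are not shared between groups. Of the alternative values of the members, 623 kept their direction and side of the threshold, 38 changed sign, none of them past the threshold in either fit, 20 lost a call and 9 gained one. The cause was not tested where none is given. Depth limits little here: the member with the fewest reads had 364 in its lowest library.

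The number of genes called was 41 for weaning in males, 204 for weaning in females, 1901 and 1860 from p21 to SW in males and females, 2395 and 1938 from p21 to DW, 57, 567 and 394 between the sexes at p21, after SW and after DW, 3 for the sex by weaning and 165 for the sex by age interaction. DESeq2 called 111 for weaning in males, 115 and 848 between the sexes at p21 and after DW, and 1 and 102 for the interactions. edgeR called 71 for weaning in females, 15 between the sexes at p21, 0 and 4 for the interactions, and 0 members from p21 to DW in females. A pseudocount of 0.1 gave 63 for weaning in females, 92 between the sexes at p21, and 0 and 38 for the interactions.

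With only the compared groups, 98 genes were called for weaning in males and 1 in females, 822 from p21 to SW in males, 495 from p21 to DW in females, 5 and 256 between the sexes at p21 and after DW, and 1 for sex by weaning. Members called were then 2 from p21 to SW in females (Gamt with Atp2a2), 1 between the sexes after SW (Alpl), and 0 from p21 to SW in males, to DW in males and to DW in females. TMM scaling turned Gatm from p21 to DW in females to 0.0094.

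With the muscle score, 66 genes were called for weaning in females, 427 and 1197 from p21 to SW in males and females, 764 from p21 to DW in males, and 0 members in SW males and 0 in DW males against p21. Differences that changed sign were Gamt for weaning in females (-0.033), Gatm from p21 to DW in males (-0.027) and Slc6a8 from p21 to SW (-0.029) and to DW (-0.061) in males. With the mammary score, 4, 8 and 5 genes were called between the sexes at p21, after SW and after DW, and Alpl after SW was -0.31 and Ckmt1 after DW -0.034. With the run of animal numbers, 181 genes were called for weaning in males and 0 in females, and Ckb in males was 0.038.

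With the GC slope, 68 and 52 genes were called for weaning in males and females, and 2753 and 2793 from p21 to SW. The same fit called 3756 from p21 to DW in males, 1 for sex by weaning and 310 for sex by age. Members called were 3 from p21 to SW (Atp2a2, Ckb and Alpl) and 2 to DW (Atp2a2 and Ckb) in males, and 1 between the sexes after SW (Alpl). Ckb became 0.035 for weaning in males, 0.19 for weaning in females, -0.046 from p21 to SW and 0.14 from p21 to DW in females, and Atp2a2 -0.0095 for weaning in females. Without DW females 82 and 83, 7 genes were called for weaning in females and 0 for sex by weaning. Weaning in females was then 0.19 for Ckb and -0.047 for Atp2a2, and p21 to DW in females 0.26 for Ckb and 0.020 for Alpl.

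Leaving out 1 animal at a time gave 10 to 42 genes for weaning in males (10 without DW male 87), 45 (without DW female 82) to 1996 (without DW female 76) in females, 1150 (without SW male 85) to 1723 from p21 to SW in males, 1236 (without DW male 87) to 2555 from p21 to DW in males, 1071 (without DW female 83) to 3123 (without DW female 76) in females, 18 (without p21 male 53) to 99 (without p21 female 55) between the sexes at p21, 263 to 1829 (without DW female 76) after DW, and 0 to 8 for sex by weaning. Members called ranged from 0 to 1 for weaning in females, from p21 to SW in males and from p21 to DW in each sex.

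Over the same fits, weaning in males ranged from -0.15 to 0.069 for Ckb, -0.0072 to 0.11 for Gamt, -0.10 to 0.043 for Slc6a8 and -0.042 to 0.073 for Alpl, and weaning in females from -0.045 to 0.26 for Gamt. From p21 to SW in females the ranges were -0.11 to 0.27 for Ckb, -0.13 to 0.058 for Slc6a8 and -0.0068 to 0.29 for Alpl. From p21 to DW they were -0.30 to 0.0076 for Gamt in males, and -0.43 to 0.017 for Ckb and -0.16 to 0.090 for Gatm in females.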

Other observations

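Between DW and SW, none of the 8 B and T cell, 5 endothelial, 7 adipose progenitor, 6 Schwann cell, 5 macrophage, 5 erythroid and 4 measured neutrophil markers was called by limma in either sex at an adjusted p under 0.05. With age, the Schwann cell markers were lower in part, with 2 of 6 called in males and 4 of 6 in females from p21 to SW, and 2 and 3 of 6 from p21 to DW. Their sum was 361.9 to 775.2 at p21 and 233.6 to 592.2 at p28. Of the 7 progenitor markers, 1 was higher in males and 0 in females after SW, and 2 in each sex after DW. Of the 5 endothelial markers, 1 and 3 were higher in males after SW and DW and 0 in females.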
